A study of Homo sapiens with 10 samples.

Results

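The genes described here are MEST and 8 further imprinted genes, PEG10, PEG3, SGCE, GRB10, PHLDA2, PLAGL1, IGF2 and DLK1, in MIA PaCa-2 cells, a human line from a pancreatic ductal adenocarcinoma. They are the 9 of 16734 genes of an expression table whose symbol is one of these names, and they were chosen with their response in these libraries in view. RNA was sequenced from 5 libraries of cells in 10 µM hydroxyprogesterone caproate (HPC), a synthetic progestin, and from 5 libraries of cells given the same volume of its solvent DMSO, both for 24 h. The comparison covers 1 cell line at 1 dose and 1 time, and the labels give the 5 libraries of each group as biological replicates. Because the contrast between HPC and DMSO chose the members, their values in it are given as a description, with no p-value.

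Genomic imprinting marks a gene in the germ line so that in the offspring the copy from the mother and the copy from the father are not used alike. The mark is DNA methylation laid down at a control region, kept through cell division by the maintenance methyltransferase DNMT1 with its partner UHRF1, and protected in the early embryo by the zinc finger protein ZFP57 with TRIM28. Many imprinted genes act on growth of the fetus and placenta, and in adult tissues and tumours their level and their imprint can change independently of each other. RNA from the whole gene was measured here, so the parental copies were not told apart.

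MEST, PEG10, SGCE and GRB10 lie on chromosome 7, PHLDA2 and IGF2 on chromosome 11, PLAGL1 on chromosome 6, DLK1 on chromosome 14 and PEG3 on chromosome 19. MEST occupies positions 130486171 to 130506465 of the plus strand (GRCh38, GENCODE 29). Its introns hold the microRNA miR-335, whose mature arms start at positions 130496126 and 130496162, inside no annotated MEST exon. Their RefSeq sequences (GRCh38.p14) are shown because the microRNA shares the transcript of the member that differed most, with the seed, bases 2 to 8, in capitals. MicroRNA levels were not analysed here.
hsa-miR-335-5p: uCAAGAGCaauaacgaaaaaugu
hsa-miR-335-3p: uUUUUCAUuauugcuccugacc

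RefSeq start sites with a promoter window were at hand for 3 members, MEST, GRB10 and PLAGL1, with 5 starts each. One window is shown for the member that was most reduced in HPC and one for the member most increased among those above 0 in every library, 250 bases 5′ to 3′ up to the start, with each CpG, the dinucleotide that carries imprinting methylation, in capitals. The MEST window, chr7:130491808-130492057 on the plus strand, holds 16 CpG and overlaps no annotated exon of the gene. The GRB10 window, chr7:50793454-50793703 on the minus strand, holds 37 CpG, and 9 of its bases lie in an annotated exon. The median over 35116 such windows of 27305 genes was 11 CpG. The 5 MEST windows ranged from 9 to 20 CpG and the 5 GRB10 windows from 2 to 40. Whether a window shown lies in an imprinting control region was not tested. The letters TGCCGC or their reverse complement GCGGCA, the core that ZFP57 reads in methylated DNA, were searched on both strands. They occurred in 12.7% of all windows and in 3 of the 15 windows of the members, 1 window each of MEST, GRB10 and PLAGL1, among them the GRB10 window shown but not the MEST window shown.
MEST promoter: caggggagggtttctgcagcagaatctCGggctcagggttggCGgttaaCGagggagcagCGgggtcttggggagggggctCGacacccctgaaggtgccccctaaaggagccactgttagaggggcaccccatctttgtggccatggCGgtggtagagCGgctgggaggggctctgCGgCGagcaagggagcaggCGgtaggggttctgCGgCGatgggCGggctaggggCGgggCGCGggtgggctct
GRB10 promoter: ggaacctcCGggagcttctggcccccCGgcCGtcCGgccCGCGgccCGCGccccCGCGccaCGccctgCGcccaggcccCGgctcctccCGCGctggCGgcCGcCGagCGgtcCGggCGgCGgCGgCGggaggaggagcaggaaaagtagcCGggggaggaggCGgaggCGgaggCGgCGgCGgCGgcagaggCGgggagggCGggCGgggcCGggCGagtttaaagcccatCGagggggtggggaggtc

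MEST, a paternally expressed gene whose protein has an alpha/beta hydrolase fold, was 52.3-fold lower in HPC. The deposited values, in FPKM, a count divided by the length of the gene and the size of the library, were 0.0286, 0.0425, 0.0742, 0.0544 and 0.068 in the HPC libraries, against 2.73, 2.93, 2.81, 2.77 and 2.75 in the DMSO libraries. Every HPC library was far below every DMSO library. In bulk RNA, fewer cells with a transcript and less of it per cell cannot be told apart. The means were 0.0535 ± 0.0186 FPKM in HPC and 2.8 ± 0.0796 FPKM in DMSO (SD, n = 5 each). The libraries held 49 to 137 counts of MEST in HPC and 4887 to 5739 in DMSO (counts assigned to the gene). The end of MEST overlaps COPG2 on the other strand, and whether counting used the strand is not given in the sources used here, so reads of the 2 genes in the overlap cannot be told apart. The coefficient of variation was 34.7% among the HPC libraries, where counts were low, and 2.84% among the DMSO libraries. On the scale log2(FPKM + 0.1) the difference, HPC minus DMSO, was -4.25 ± 0.0791 (SE), the sixth lowest of the 9150 genes that had at least 1 FPKM in at least 5 libraries. The pseudocount of 0.1 exceeds the mean in HPC and holds this value down, and limma voom on the counts gave -5.77 ± 0.188. A pseudocount of 1 gave -1.85.

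Of the 9 members, 5 had groups that did not overlap, 3 of them higher in HPC and 2 lower, and in 4 the groups overlapped. Over all 16734 genes, 58.4% had groups that did not overlap, 26.6% higher in HPC and 31.7% lower, and among the 9150 genes at 1 FPKM or more in 5 libraries 79.6% did, 38.5% higher and 41.1% lower. The members were chosen on this contrast, so nothing is read from their share. Only MEST, GRB10 and PHLDA2 reached 1 FPKM in 5 libraries, and the other 6 did not enter the test across genes. GRB10 reached it only in the HPC libraries and MEST only in the DMSO libraries, so both had to differ in order to pass.

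**Figure D1:**
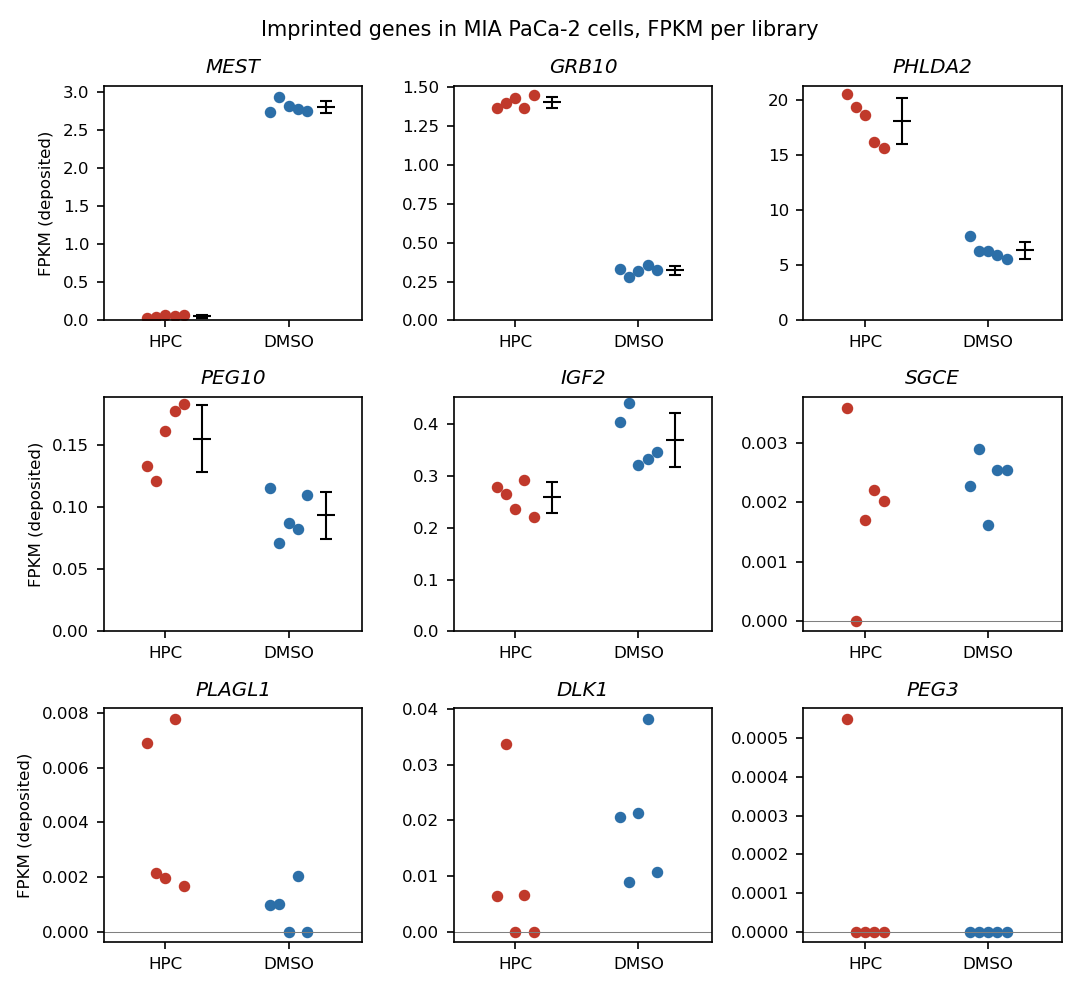
Deposited FPKM of each of the 9 members in every library, HPC in red to the left and DMSO in blue to the right, with a vertical axis of its own per gene. Bars give mean ± SD (n = 5) where all 10 libraries were above 0. The HPC and DMSO points lie apart for MEST, GRB10, PHLDA2, PEG10 and IGF2 and overlap for SGCE, PLAGL1, DLK1 and PEG3.

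GRB10 encodes an adaptor that binds the insulin and IGF1 receptors and damps their signal, and its parental expression differs between tissues. It lies on the minus strand of chromosome 7 between 50590063 and 50793462. Its values were 1.37, 1.4, 1.43, 1.37 and 1.45 FPKM in the HPC libraries, against 0.334, 0.279, 0.319, 0.359 and 0.323 FPKM in the DMSO libraries. The HPC libraries were the higher ones throughout, and they agreed closely with each other. The means were 1.4 ± 0.034 FPKM in HPC and 0.323 ± 0.029 FPKM in DMSO (SD, n = 5 each), a 4.34-fold higher level in HPC. The log2 difference was 1.83 ± 0.0563 (SE) with the pseudocount of 0.1, 0.86 with a pseudocount of 1 and 2.12 ± 0.051 by voom on counts, which numbered 5437 to 6400 in HPC and 1229 to 1578 in DMSO.

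PHLDA2, a maternally expressed gene, encodes a small protein with a pleckstrin homology domain that restrains growth of the placenta. It occupies 2928273 to 2929455 on the minus strand of chromosome 11, in the domain of CDKN1C and KCNQ1. Its values were 20.5, 19.3, 18.6, 16.2 and 15.6 FPKM in the HPC libraries, against 7.67, 6.32, 6.27, 5.97 and 5.55 FPKM in the DMSO libraries. The groups were well apart, although the spread inside each was wider than for GRB10. PHLDA2 averaged 18.0 ± 2.07 FPKM in HPC and 6.36 ± 0.794 FPKM in DMSO (SD, n = 5 each), 2.84-fold higher in HPC. Its log2 difference was 1.49 ± 0.0945 (SE), and 1.51 ± 0.0953 by voom.

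PEG10, a paternally expressed gene derived from a retrotransposon and needed for the placenta in mice, was low in both groups. Its values were 0.133, 0.121, 0.161, 0.177 and 0.183 FPKM in the HPC libraries, against 0.115, 0.0714, 0.0874, 0.0826 and 0.11 FPKM in the DMSO libraries. The groups did not overlap, but the lowest HPC library and the highest DMSO library were close, at 0.121 and 0.115 FPKM. The means were 0.155 ± 0.0272 FPKM in HPC and 0.0933 ± 0.0186 FPKM in DMSO (SD, n = 5 each), 1.66-fold higher in HPC, from 274 to 399 counts in HPC and 173 to 282 in DMSO. The voom log2 difference was 0.73 ± 0.155 (SE).

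SGCE, which encodes epsilon-sarcoglycan, a membrane protein of the dystrophin-associated complex, is PEG10's neighbour on the opposite strand, and the annotated spans overlap at their starts. Its values were 0.0036, 0, 0.00171, 0.00221 and 0.00203 FPKM in the HPC libraries, against 0.00228, 0.0029, 0.00162, 0.00254 and 0.00254 FPKM in the DMSO libraries. The lowest and the highest of these 10 values were both in HPC, so the groups overlapped. PEG10 and SGCE share a control region. Whether counting used the strand is not given in the sources used here, so reads in the overlap cannot be assigned with certainty.

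IGF2, a growth factor of the fetus expressed from the paternal copy, was lower in HPC. It had 0.28, 0.265, 0.237, 0.293 and 0.221 FPKM in the HPC libraries, against 0.405, 0.442, 0.322, 0.334 and 0.346 FPKM in the DMSO libraries. The highest HPC library lay below the lowest DMSO library. The means were 0.259 ± 0.03 FPKM in HPC and 0.37 ± 0.0514 FPKM in DMSO (SD, n = 5 each), 1.43-fold lower in HPC, with a voom log2 difference of -0.51 ± 0.108 (SE). In the annotation IGF2 overlaps INS-IGF2 and the antisense gene IGF2-AS, so its value is uncertain to that extent.

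PLAGL1, DLK1 and PEG3 were at or near 0. PLAGL1, a paternally expressed zinc finger transcription factor that can halt the cell cycle, had 0.00692, 0.00215, 0.00197, 0.0078 and 0.00167 FPKM in the HPC libraries, against 0.000989, 0.001, 0, 0.00205 and 0 FPKM in the DMSO libraries. The 2 highest values were in HPC, and the other 3 HPC libraries lay within or near the DMSO range. DLK1, a paternally expressed membrane ligand related to those of Notch, had 0.00637, 0.0337, 0, 0.00666 and 0 FPKM in the HPC libraries, against 0.0207, 0.009, 0.0214, 0.0383 and 0.0107 FPKM in the DMSO libraries. One HPC library was inside the DMSO range and the other 4 were below it. PEG3, a paternally expressed zinc finger gene, was listed at 0 in 9 libraries and at 0.000551 FPKM in HPC replicate 1. At these levels no difference could be read.

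The gene length behind the deposited values came within 5% of the summed exons of all annotated transcripts for 89.5% of genes. If a read counts once per gene, a gene with many annotated transcripts therefore tends to have a low FPKM. MEST has 17 transcripts, a summed exon length of 24792 bases and 4794 bases once overlapping exons are merged. To compare genes, levels were put on a scale of counts per kb of merged exons, scaled to library size as in FPKM. This scale compares genes only if a read counts once per gene, and what a count stands for is not known. On this scale PHLDA2 was highest in HPC at 32.0 ± 3.68, followed by GRB10 at 8.61 ± 0.209, IGF2 at 0.928 ± 0.107, PEG10 at 0.766 ± 0.135 and MEST at 0.277 ± 0.0959 (SD, n = 5). In DMSO the same scale put MEST highest at 14.5 ± 0.412, followed by PHLDA2 at 11.3 ± 1.41, GRB10 at 1.98 ± 0.178, IGF2 at 1.32 ± 0.184 and PEG10 at 0.462 ± 0.0919 (SD, n = 5). On this scale MEST was thus the lowest of the 5 in HPC and the highest in DMSO. By deposited FPKM it was also the lowest in HPC. In DMSO, however, PHLDA2 was above MEST by deposited FPKM, at 6.36 against 2.8, so the top place of MEST depends on the scale. Neighbours in the orders per merged kb did not share values between libraries, except IGF2 and PEG10 in HPC. These spanned 0.789 to 1.05 and 0.599 to 0.905.

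**Figure D2:**
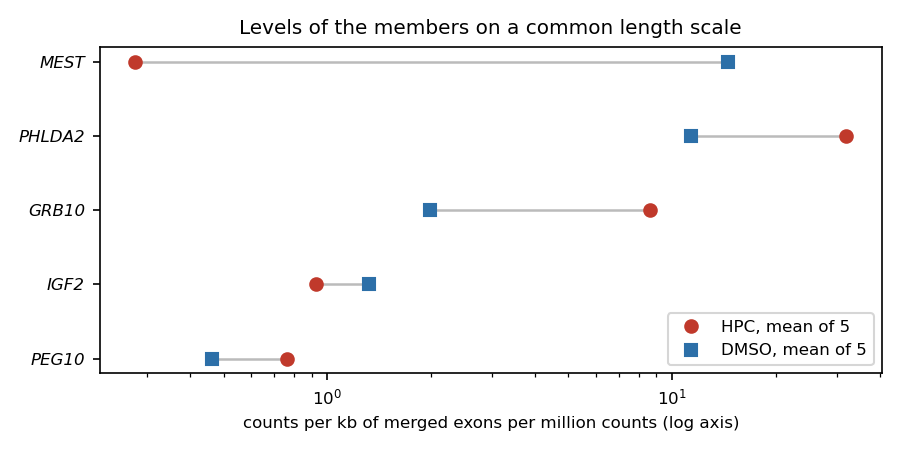
Mean level of the 5 members above 0 in every library, as counts per kb of merged exons scaled to library size, on a log axis, HPC as red circles and DMSO as blue squares. MEST is at 0.277 in HPC and 14.5 in DMSO, while PHLDA2 and GRB10 are higher in HPC.

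Across all genes the contrast was broad. Libraries correlated at 0.989 to 0.994 within a group and at 0.842 to 0.863 between groups (Pearson's r of log2 values across genes, which are not independent replicates). Of 9150 genes tested with limma, 87.7% passed an adjusted p of 0.05, 42.9% higher in HPC and 44.8% lower, and every count of a list is to be read against those shares. Of these 9150 genes, 274 were at 1 FPKM or more in all HPC libraries and in no DMSO library, and 479 the other way round, so these had to differ in order to be tested. In numbers, 3922 genes had a higher level in HPC and 4099 a lower one. When libraries were scaled to the same sum over genes outside the mitochondrial genome, 2957 were higher and 5015 lower, and the median log2 difference of all tested genes was -0.18 in place of -0.01. Among the ductal epithelial markers, KRT8 and KRT18 averaged 57.7 and 150 FPKM in HPC and 51.8 and 114 FPKM in DMSO. KRT19 averaged 10.1 FPKM in HPC and 24.0 FPKM in DMSO (limma adjusted p = 6.17e-09). KRT7 and MUC1, too low for the test, averaged 0.0352 and 0.0649 FPKM in HPC and 0.226 and 0.808 FPKM in DMSO. S100P, also too low for the test, went the other way, at 0.679 FPKM in HPC and 0.0576 FPKM in DMSO. The mesenchymal gene VIM averaged 333 FPKM in HPC and 695 FPKM in DMSO, and the epithelial genes EPCAM and CDH1 were below 0.01 FPKM on average in both groups. The leukocyte gene PTPRC averaged 0.000947 FPKM in HPC and was listed at 0 in DMSO. The macrophage marker CD68 averaged 9.77 FPKM in HPC and 2.75 FPKM in DMSO (limma adjusted p = 3.62e-09). The endothelial cadherin CDH5 averaged 0.0124 FPKM in HPC and 1.42 FPKM in DMSO (limma adjusted p = 1.55e-14). CDH5 reached 1 FPKM only in DMSO libraries and had to differ in order to be tested. The part of these shifts in the members' values was not tested. Leaving VIM aside, 3 of the 9 ductal markers reached the level needed for the test, as did 2 of 7 stromal, 2 of 6 immune and endothelial and 0 of 2 acinar and endocrine markers in the table.

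Imprinted genes outside the 9 members moved in both directions. Of 62 listed, 48 were in the table and 17 were tested, of which 8 were higher in HPC, 8 lower and 1, NAP1L4, did not pass, a share of 94.1% called and a median log2 difference of 0.06. With libraries scaled outside the mitochondrial genome, 6 were higher and 9 lower, with NAP1L4 called lower and ZNF264 and ZNF597 not called. Voom on counts tested 39 of the listed genes and found 15 higher, 15 lower and 9 not passing. Over all genes in that test 81.3% were called, 37.6% higher and 43.7% lower.

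Of the 17, CMKLR2 and KLF14 reached 1 FPKM only in HPC libraries and ERAP2, TRAPPC9, KCNQ1 and ANO1 only in DMSO libraries. These 6 had to differ in order to be tested, so their p-values describe the size of the difference against its spread and add no support. CMKLR2, a chemerin receptor, averaged 2.43 ± 0.164 FPKM in HPC and 0.163 ± 0.0364 FPKM in DMSO (SD, n = 5 each; log2 difference 3.27 ± 0.09 SE, limma adjusted p = 9.54e-13). ERAP2, an aminopeptidase that trims peptides for antigen presentation, fell to 0.256 ± 0.0491 FPKM in HPC, against 1.43 ± 0.104 FPKM in DMSO (log2 difference -2.11, limma adjusted p = 7.95e-11). TRAPPC9, a vesicle trafficking subunit, had a log2 difference of -1.41, the potassium channel KCNQ1 -1.34 and the chloride channel ANO1 -1.05, with limma adjusted p-values of 5.85e-10, 1.12e-09 and 3.37e-10. Imprinting of several listed genes, ERAP2 and ANO1 among them, is limited to certain tissues or is not settled. Among listed genes too low for limma, WT1 averaged 0.0814 FPKM in HPC and 0.554 FPKM in DMSO and TP73 averaged 0.0303 FPKM in HPC and 0.213 FPKM in DMSO. TFPI2, near PEG10 in the same imprinted region, averaged 0.116 FPKM in HPC and 0.00924 FPKM in DMSO. These 3 were picked after their values were seen.

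**Figure D3:**
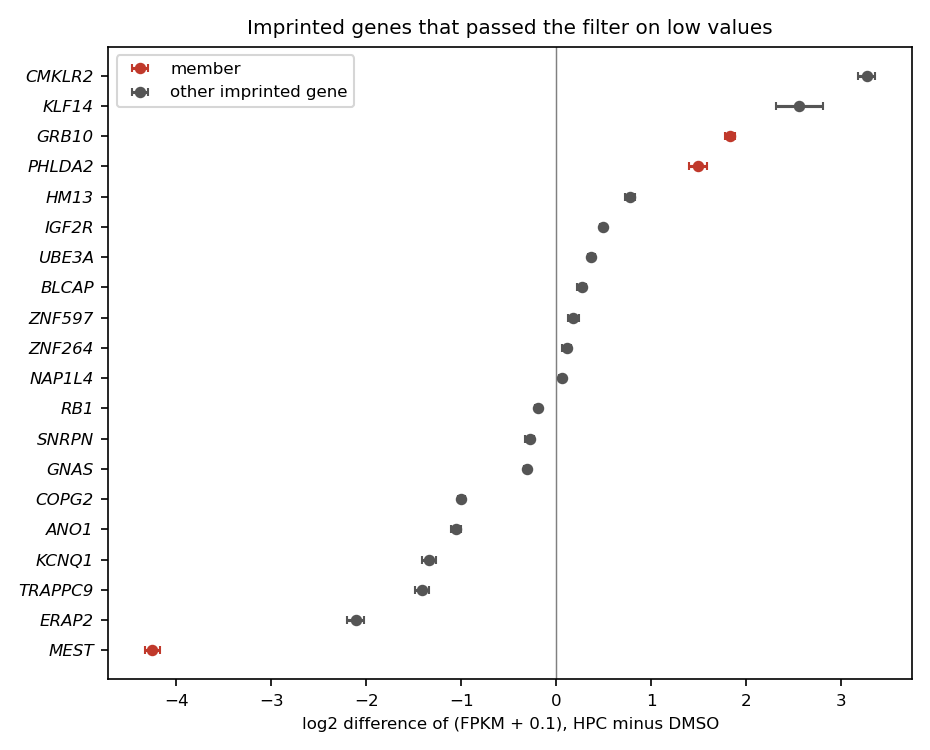
Difference of mean log2(FPKM + 0.1), HPC minus DMSO, with its SE, for the 3 tested members in red and the 17 other tested imprinted genes in grey. MEST, at -4.25, is the lowest of the 20, and CMKLR2, at 3.27, is the highest.

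Of the genes that write and keep DNA methylation and imprints, UHRF1, DNMT1 and HELLS were lower in HPC and UHRF2 was higher. Of 29 listed, 26 were in the table and 18 were tested: 12 were lower, 4 higher and 2, EED and TET3, did not pass, a share of 88.9% called with a median log2 difference of -0.39. Scaling outside the mitochondrial genome gave 3 higher and 14 lower, with EED and TET3 called lower and CTCF not called. EHMT1 and EHMT2 reached 1 FPKM only in DMSO libraries and had to differ in order to be tested. UHRF1, which recruits DNMT1 to newly copied DNA, fell to 1.02 ± 0.0442 FPKM in HPC, against 5.17 ± 0.121 FPKM in DMSO (SD, n = 5 each; log2 difference -2.23 ± 0.0366 SE, limma adjusted p = 1.14e-14). DNMT1, the maintenance methyltransferase, averaged 3.47 ± 0.194 FPKM in HPC and 6.88 ± 0.293 FPKM in DMSO (log2 difference -0.97, limma adjusted p = 9.34e-11). The chromatin remodeller HELLS and the histone H3 lysine methyltransferase EHMT2 had log2 differences of -1.42 and -1.70. UHRF2, a relative of UHRF1, was higher at 6.89 ± 0.121 FPKM in HPC and 3.29 ± 0.0526 FPKM in DMSO (limma adjusted p = 3.81e-13), as was KDM1B, a histone demethylase needed for maternal imprints in mouse oocytes, at 6.85 FPKM in HPC and 3.97 FPKM in DMSO. TRIM28, the partner of ZFP57, had a log2 difference of -0.39, and ZFP57 itself was not among the 26 listed genes found in the table. DNA methylation itself was not measured.

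Genes that work with IGF2 and GRB10 were also split. Of 17 tested, 6 were higher in HPC, 9 lower and 2 did not pass, a share of 88.2% called and a median log2 difference of -0.13. Scaling outside the mitochondrial genome gave 5 higher and 12 lower. IGFBP4, a secreted protein that binds IGF2, fell to 6.37 ± 0.148 FPKM in HPC, against 26.2 ± 1.87 FPKM in DMSO (SD, n = 5 each; log2 difference -2.02, limma adjusted p = 9.64e-14). IGF2BP3, which binds IGF2 mRNA, averaged 5.61 ± 0.668 FPKM in HPC and 16.5 ± 0.621 FPKM in DMSO (limma adjusted p = 1.34e-10). IGF2R, which carries IGF2 to the lysosome, rose to 13.2 ± 0.189 FPKM in HPC, against 9.40 ± 0.387 FPKM in DMSO (limma adjusted p = 3.03e-09), and is on the imprinted list too. Of the receptors GRB10 binds, INSR averaged 1.93 FPKM in HPC and 1.5 FPKM in DMSO, and IGF1R averaged 0.707 FPKM in HPC and 1.13 FPKM in DMSO, reaching 1 FPKM only in DMSO libraries. IRS2, a docking protein of the insulin receptor, rose with a log2 difference of 1.13 and PIK3CA, a catalytic subunit of PI3-kinase, with 0.52, and the kinase AKT1 fell by 0.73 on the log2 scale.

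Of the Notch genes, the receptors, ligands and effectors of the pathway that DLK1 acts on, 9 were tested, of which 7 were lower in HPC, 1 higher and 1, NOTCH2, did not pass, a share of 88.9% called with a median log2 difference of -0.20. NOTCH3 fell to 1.33 ± 0.12 FPKM in HPC, against 3.71 ± 0.186 FPKM in DMSO (SD, n = 5 each; limma adjusted p = 4.86e-11). The other 5 named changes were small, at log2 differences of -0.58 for the ligand JAG2, -0.35 for the transcription factor RBPJ, -0.25 for NOTCH1 and -0.20 for both MAML1 and JAG1. The single higher gene, HES1, was not called when libraries were scaled outside the mitochondrial genome. NOTCH2 was called lower under that scaling, at a log2 difference of -0.16, which gave 0 higher and 8 lower. Voom on counts tested 16 Notch genes and found 5 higher and 10 lower.

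SGCE's partners, the dystroglycan complex that ties the cytoskeleton to the matrix, were lower in 5 of 6 tested genes, a share of 83.3% called with a median log2 difference of -0.90. SSPN and UTRN reached 1 FPKM only in DMSO libraries and had to differ in order to be tested. Dystroglycan itself, DAG1, averaged 2.32 ± 0.052 FPKM in HPC and 4.91 ± 0.181 FPKM in DMSO (SD, n = 5 each; log2 difference -1.05, limma adjusted p = 3.67e-12), and sarcospan, SSPN, averaged 0.241 ± 0.0537 FPKM in HPC and 1.38 ± 0.0809 FPKM in DMSO (limma adjusted p = 1.27e-10). The syntrophin SNTB2 had a log2 difference of -0.60 and utrophin, UTRN, one of -0.84. Beta-sarcoglycan, SGCB, averaged 8.46 FPKM in HPC and 8.55 FPKM in DMSO, a log2 difference of -0.02 with a limma adjusted p of 0.681, which became -0.18 with 0.000401 under the scaling outside the mitochondrial genome.

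All 16 tested relatives of the members passed, 10 higher in HPC and 6 lower, a share of 100% called with a median log2 difference of 0.30. Scaling outside the mitochondrial genome gave 8 higher and 6 lower, with RTL6 and PNMA6A no longer called. ARC reached 1 FPKM only in HPC libraries and GRB7 only in DMSO libraries, so both had to differ in order to be tested. PHLDA1 and PHLDA3, which share the pleckstrin homology domain of PHLDA2, were both higher: PHLDA1 at 46.9 ± 1.25 FPKM in HPC and 27.3 ± 0.47 FPKM in DMSO, PHLDA3 at 5.22 ± 0.375 FPKM in HPC and 1.77 ± 0.108 FPKM in DMSO (SD, n = 5 each; limma adjusted p = 2.55e-12 and 1.41e-11). GRB7, the closest adaptor to GRB10 among the genes listed, was the opposite of it, at 0.204 ± 0.0426 FPKM in HPC and 1.64 ± 0.0638 FPKM in DMSO (log2 difference -2.53, limma adjusted p = 6.14e-12). Of the retrotransposon-derived relatives of PEG10, ARC, whose protein forms capsids in neurons, averaged 2.86 ± 0.239 FPKM in HPC and 0.143 ± 0.0486 FPKM in DMSO (log2 difference 3.63 ± 0.124 SE, limma adjusted p = 1.35e-11). RTL5 and RTL8A were higher as well, with log2 differences of 1.28 and 1.04. RTL8A shares near-identical sequence with RTL8B and RTL8C, both lower in HPC, so the split of reads between the 3 is uncertain.

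Genes placed around the members changed in both directions. Apart from the members, 69 genes of the table start within 500 kb of a member, and 32 were tested: 11 of these had a higher level in HPC, 17 a lower one, and 4 missed the threshold, a share of 87.5% called with a median log2 difference of -0.31. Scaling outside the mitochondrial genome gave 8 higher and 21 lower. Of the 32 genes, 1 reached 1 FPKM only in HPC libraries and 6 only in DMSO libraries. All of these had to differ in order to be tested. CEP41, COL1A2, KCNQ1 and BEGAIN were among those that reached it only in DMSO. Around MEST, 6 genes were tested, with KLHDC10 and KLF14 higher in HPC, TMEM209, CEP41 and COPG2 lower and ZC3HC1 not passing. KLHDC10 was not called, and ZC3HC1 was called lower, under the scaling outside the mitochondrial genome. COPG2, a coat protein gene on the other strand whose end overlaps that of MEST, averaged 4.73 ± 0.236 FPKM in HPC and 9.53 ± 0.194 FPKM in DMSO (SD, n = 5 each; 0.496 of the DMSO level, limma adjusted p = 1.07e-11). KLF14, a transcription factor gene imprinted in the same region with its start 248 kb from that of MEST, went the other way, at 1.34 ± 0.289 FPKM in HPC and 0.152 ± 0.0854 FPKM in DMSO (log2 difference 2.56 ± 0.243 SE, limma adjusted p = 1.51e-06). KLF14 reached 1 FPKM only in HPC libraries and was named after its values were seen.

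Near PEG10 and SGCE 2 genes were tested and both were lower. One, COL1A2, encodes a chain of type I collagen, a stromal marker, and starts 262 kb from PEG10. It fell to 0.809 ± 0.101 FPKM in HPC, against 25.8 ± 0.866 FPKM in DMSO (SD, n = 5 each; log2 difference -4.84 ± 0.0626 SE, limma adjusted p = 2.23e-15). The other stromal marker tested, ACTA2, averaged 2.7 FPKM in HPC and 2.6 FPKM in DMSO (limma adjusted p = 0.548). Voom on counts tested 5 stromal markers and found 1 higher, 3 lower and 1 not passing. Beside PHLDA2, 3 genes were tested, 1 higher, 1 lower and 1 not passing. The higher one, the tRNA ligase gene CARS1, averaged 5.45 ± 0.193 FPKM in HPC and 1.64 ± 0.0635 FPKM in DMSO (log2 difference 1.67, limma adjusted p = 1.23e-13). CDKN1C, the growth inhibitor of the same imprinted domain, averaged 0.421 FPKM in HPC and 0.352 FPKM in DMSO with groups that overlapped. Around DLK1, 5 genes were tested, 1 higher and 4 lower. The higher one was the tRNA ligase gene WARS1, at 33.5 ± 1.04 FPKM in HPC and 15.9 ± 0.69 FPKM in DMSO. BEGAIN was among the lower ones, at 0.754 ± 0.0361 FPKM in HPC and 2.19 ± 0.14 FPKM in DMSO. RTL1, an imprinted gene beside DLK1, averaged 0.00203 FPKM in HPC and 0.0475 FPKM in DMSO, too low for limma. Of 6 genes tested around IGF2, 1 was higher, 4 were lower and 1 did not pass. The higher one, TSSC4, averaged 3.34 ± 0.224 FPKM in HPC and 1.69 ± 0.0406 FPKM in DMSO. Around PEG3, which lies in a zinc finger cluster, 4 of 14 genes were tested and all 4 were higher in HPC. Under the scaling outside the mitochondrial genome 2 of these, ZNF71 and ZNF264, were no longer called, with log2 differences of 0.03 and -0.04. Among the genes around PEG3 too low for limma, voom on counts called ZNF460, ZNF470, ZNF583 and ZNF805 higher. It called ZSCAN5A, ZNF471 and SMIM17 lower.

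**Figure D4:**
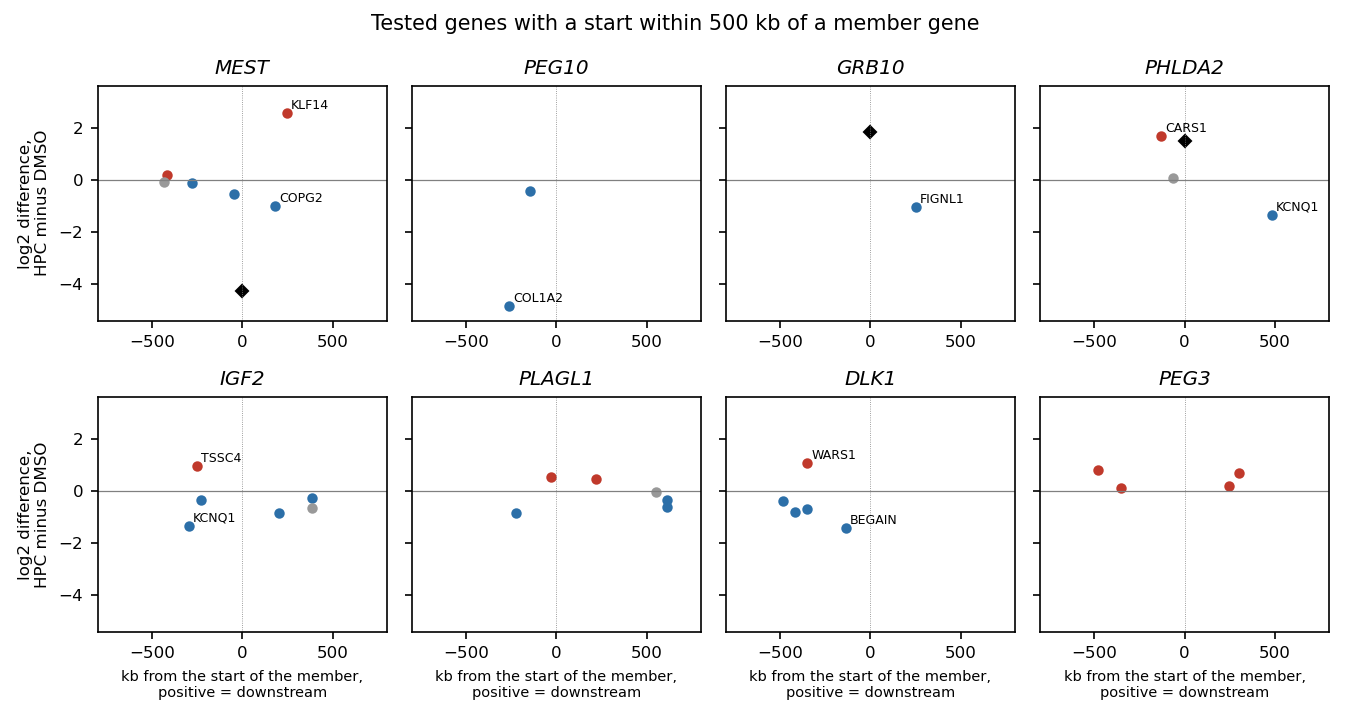
Log2 difference, HPC minus DMSO, of tested genes with a start within 500 kb of a member gene, against the distance of their start from the member's start in kb (positive is downstream of the member). Red points were called higher, blue points lower and grey points did not pass. Black diamonds are MEST at -4.25, GRB10 at 1.83 and PHLDA2 at 1.49, and COL1A2, at -4.84, is the lowest point.

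The genes whose pattern over the 10 libraries was most like that of MEST were sought by the root mean square distance between log2(FPKM + 0.1) values, each centred on its gene's mean. S100A4, a calcium-binding protein, was nearest at 0.0891, with 13.2 ± 1.12 FPKM in HPC and 235 ± 14.4 FPKM in DMSO (SD, n = 5 each). ANK1 followed at 0.187, MCHR1 at 0.196, TCF7 at 0.224 and SEMA6B at 0.242, and the next gene stood at 0.247. The median distance of tested genes from MEST was 2.12. The 5 named genes lie on 5 chromosomes, none of them chromosome 7. The measure is dominated by the step between the groups, so it ranks genes by how close their difference is to that of MEST on this scale. It depends on the pseudocount of 0.1, which holds down the difference of MEST more than that of S100A4: other pseudocounts were not tried for the ranking.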

How the data were processed

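MIA PaCa-2 mRNA libraries (5 HPC, 5 DMSO) were sequenced as paired-end reads after poly(A) selection, per the labels' protocols. Tools named in the submitters' processing notes, without saying what each did, are STAR 2.7.7a, fastp 0.23.2 and edgeR, and the build is GRCh38.p13. The authors deposited 1 table of FPKM for 16734 genes and 10 libraries. Its values are whole counts over a gene length and a library total, and both were recovered from the steps of the values. Whole counts, within 0.0001 of a count, were obtained for 99% of the 15208 genes above 0 in at least 3 libraries. Library totals were 65886687 to 74516766 in HPC and 71648782 to 82273103 in DMSO. The lengths came within 5% of the summed exons of all GENCODE 29 transcripts for 89.5% of genes. They came within 5% of the merged exons for 6.44%. Levels between genes were therefore compared per merged kb, which assumes that a read counts once per gene. Among counts of 1 to 10 the most frequent was 4 (2280 values, against 812 at 1), so a count is not a single independent fragment and no counting intervals are given.

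The 9150 genes that reached 1 FPKM in 5 or more libraries were compared on log2(FPKM + 0.1), which understates the fold of low genes, with limma 3.58.1 in R 4.3.3 (trend and robust, two-sided, Benjamini-Hochberg at 0.05). The fit was tested on simulated data. Voom on recovered counts tested 13558 genes, and other pseudocounts, filters, scalings, a replicate block and the omission of each library were tried. Same-numbered libraries deviated together by r of -0.0593 to 0.199 and were not treated as pairs. Members and gene lists were chosen with earlier results of these data known. Named genes are the members, the 5 nearest to MEST, and per list and for the neighbours the 6 tested genes with the smallest p, of which 1 is not reported here. Tables were made with Python 3.11.15.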

Additional observations from a re-analysis of the deposited data

Results flagged for a closer look

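Of 123 groups of 5 libraries checked among the named genes, 11 had a highest or lowest library separated from the rest by more than 0.71 of the range, and chance alone flags about 1 group in 20. Among the members, DLK1 was at 0.0337 FPKM in HPC replicate 2, while the other HPC libraries were at 0 to 0.00666 FPKM. PEG3 was at 0.000551 FPKM in HPC replicate 1 and listed at 0 in the other HPC libraries. Of other HPC libraries, CMKLR2 was at 2.14 FPKM in replicate 4, IGFBP4 at 6.11 FPKM in replicate 1, KRT18 at 156 FPKM in replicate 4 and UTRN at 0.912 FPKM in replicate 3. In DMSO libraries, BEGAIN was at 1.94, IRS2 at 2.68 and WARS1 at 17.1 FPKM in replicate 1, and CDH5 at 1.5 and PHLDA1 at 26.5 FPKM in replicate 2. Each of these 9 values of genes outside the members was nearer to its own group than to the other one.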

How the results depend on the processing

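MEST, GRB10 and PHLDA2 kept their direction under every alternative run for them. Of the values computed under them, 326 kept close to the reported ones and 33 moved, by over 1.5 times for a count or by more than the spread between replicates for a member. IGF2BP2, called higher at a log2 difference of 0.10, was called lower at -0.07 under scaling outside the mitochondrial genome. Quantile normalization gave 4032 genes higher and 3982 lower. KRT8, at a log2 difference of 0.15, came to -0.01 under scaling outside the mitochondrial genome and -0.04 after quantile normalization. A filter of at least 5 FPKM in 5 libraries, which tests fewer genes, left 1969 genes higher in HPC and 1836 lower, with 2 higher and 3 lower among other imprinted genes, 5 and 6 among genes near the members, 5 lower among imprint maintenance genes, 5 higher and 5 lower in the IGF and insulin list, 0 higher and 3 lower among Notch genes, 2 lower in the dystroglycan complex and 2 lower among relatives of the members. With no filter, 15 other imprinted genes were higher and 15 lower, 18 genes near the members were higher and 27 lower, and 5 Notch genes were higher. Voom on counts gave 15 and 15, 18 higher and 5 higher for the same lists. Scaling outside the mitochondrial genome left 0 Notch genes higher and put GRB10 at 1.69. The log2 difference of MEST was -1.85 with a pseudocount of 1, -5.52 with 0.01, -5.48 as TPM, -4.08 after quantile normalization and -5.77 by voom, and that of GRB10 was 0.86, 2.09, 2.05, 1.95 and 2.12 under the same settings.

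Leaving out each library in turn gave 3858 to 3908 genes higher and 4037 to 4087 lower, log2 differences of -4.29 to -4.19 for MEST, 1.79 to 1.86 for GRB10 and 1.44 to 1.56 for PHLDA2, and 10 to 11 higher and 16 to 18 lower among genes near the members. The replicate numbers were not shown to pair the libraries. With a replicate block, 3892 genes were higher and 4077 lower, with 7 and 8 among other imprinted genes and 10 and 17 among genes near the members. The alternatives were tabulated for the 3 tested members only.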
